A study of Homo sapiens with 5 samples.

Results

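One of 5 Affymetrix arrays of T84 cells stood apart by its low interferon genes, and it is described here against the other 4. T84 cells come from a human colon carcinoma and serve as a model of intestinal epithelium. The array is titled as the first replicate at 6 h of interferon-gamma (IFN-gamma), and its title opposes its values: CXCL10 had an intensity of 41 and IRF1 of 14. It was chosen by these readings, each under 100, whatever the titles say, and the other 4 arrays had both genes above 500. It is called the interferon-low array below, 1 of 5 arrays in all. The other 4 are an array labelled untreated and described as a pool of control cells, the second replicate at 6 h, and both replicates at 18 h. All labelled treatments used IFN-gamma at 1000 U/ml. The labels call the arrays biological replicates without describing the cultures behind each. Since the array was picked on its own readings and has no replicate, every value below is a description, with no test and no p-value.

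IFN-gamma binds a receptor of IFNGR1 and IFNGR2 chains, whose JAK1 and JAK2 kinases signal to the nucleus. Promoter motifs called GAS elements mark early targets such as IRF1, and IRF1 with related factors binds ISRE elements of further genes. In intestinal epithelium these targets include chemokines for T cells, the machinery that presents peptides on MHC class I, antiviral proteins and enzymes that deplete tryptophan.

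An intensity is the brightness of a probe set, a group of probes for a transcript, in the authors' linear units. The table held 7018 probe sets, and 5029 exceeded a floor of 20 on at least 1 array. Values under 20 were set to 20 before log2, so a fold from a value at the floor is written as "at least". The size of a difference is the log2 gap to the nearest of the other 4 arrays, and it is 0 for a value within their range. The interferon-low array lay below that range on 1203 probe sets (23.9%) and above it on 1255 (25%). It was strictly lowest on 23.9% of the 5029, while each of the other 4 arrays was strictly lowest on 9.60% to 16.9%. It was strictly highest on 24.96%, close to the 23.6% of 6 h replicate 2, and the remaining arrays were highest on 14.0% to 18.3%. It lay at least 2-fold below the range on 242 probe sets (4.81%) and at least 2-fold above on 135 (2.68%). After quantile normalization these counts were 191 and 162, and after scaling to a common 75th percentile 195 and 183. In 220 of the 242 below, the gap was wider than the whole range of the other 4. Above, the other 4 arrays were all at or under the floor in 45 of the 135, which leaves them no range, and the gap was wider than the range in 74 of the remaining 90. Probe sets over the floor on the interferon-low array alone passed the filter through it and had to lie above. Without them, 1136 of 4910 lay above the range. The shares over all tested genes given below include such probe sets. The share below the range also varied with intensity. When tested probe sets were split by geometric mean intensity into 5 groups, 1.69% of the dimmest group lay below. The next groups upward had 19.1%, 31.8%, 37.2% and 29.8% below. The lists were not matched for intensity, so the share over all tested genes can be too low a comparison for lists of brighter genes. All 5 arrays were alike in share at or under the floor, which was 44.0% on the interferon-low array and 39.8% to 42.4% on the others. The spread of values was not alike: the SD of intensities was 410 on the interferon-low array and 245 to 350 on the others.

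The interferon-low array had the epithelial markers of the T84 label. All 19 measured markers were above the floor on it, with villin (VIL1), a bundler of microvillus actin, at 387 and at 172 to 466 on the other 4. The chloride channel CFTR had 83 on the interferon-low array and 89 to 230 on the others. The summed intensity of these markers was 23906 on the interferon-low array and 13614 to 19758 on the other 4. Of the 19 markers, 12 lay above the range (24.8% of all tested genes). After quantile normalization 6 did (28.8% of all tested genes). The sum was not rescaled. The summed level of 13 leukocyte markers was 560 on the interferon-low array and 573 to 672 on the others, and 6 of the 13 were at or under the floor on it. The pan-leukocyte marker PTPRC (CD45) had 38 on the interferon-low array and 15 to 38 on the others.

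The chemokines that draw T cells through the receptor CXCR3 showed some of the largest gaps. CXCL10 had 41 on the interferon-low array, against 1317 on the untreated-labelled array, 1149 on the second 6 h array, and 1260 and 1399 at 18 h. CXCL11 had -9 on the interferon-low array, against 837 on the untreated-labelled array, 567 on the second 6 h array, and 775 and 1007 at 18 h. CXCL9 had 48 on the interferon-low array and 271 to 387 on the other 4. All 3 ligands thus lay below a range that the other arrays shared, with gaps of 28.0-fold for CXCL10, at least 28.4-fold for CXCL11 and 5.65-fold for CXCL9. Across all 3784 tested genes, 5.29% lay at least 2-fold below the range. CXCL10 and IRF1 chose the array, so their gaps only restate that choice.

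The transcription factors of the pathway were low with them. IRF1, an activator of ISRE-bearing genes, had 14 on the interferon-low array, against 1086 on the untreated-labelled array, 907 on the second 6 h array, and 933 and 921 at 18 h, a gap of at least 45.4-fold. IRF7, IRF8 and IRF9, which serve interferon and antiviral transcription, lay 3.81-fold, 4.12-fold and 2.00-fold below the lowest of the other 4. STAT3, a transcription factor of cytokine signalling, had 104 on the interferon-low array and 480 to 725 on the others. Upstream of these, the array was less separate. The receptor chain IFNGR1 had 62 on the interferon-low array and 69 to 177 on the others, and IFNGR2 had 159 and lay within their 78 to 165. The kinase JAK1 had 4 on the interferon-low array and 37 to 104 on the others. Of the 19 tested genes for receptors, kinases, STATs and IRFs, 12 lay below the range and 1 above (5 below by at least 2-fold), with a median gap of -0.19 (log2). IRF1 is among the 12 and the 5, and its place there follows from the choice of the array. Over all tested genes 24.9% lay below, 24.8% above, and the median gap was 0.

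The promoters of 4 genes with large gaps are shown as the 250 bases upstream of the RefSeq start (GRCh38.p14), read toward the gene, to show which interferon motifs they hold. CXCL10 is at chr4:76023498-76023747, IRF1 at chr5:132490774-132491023, GBP1 at chr1:89065209-89065458 and TAP1 at chr6:32853705-32853954, all on the minus strand. Capitals mark a GAS match (TTCNNNGAA) or an ISRE match (GAAA, 2 bases of any kind, GAAA), searched on both strands, N being any base. No GAS and ISRE matches overlap in these windows, though the 2 ISRE matches of TAP1 overlap each other.
CXCL10: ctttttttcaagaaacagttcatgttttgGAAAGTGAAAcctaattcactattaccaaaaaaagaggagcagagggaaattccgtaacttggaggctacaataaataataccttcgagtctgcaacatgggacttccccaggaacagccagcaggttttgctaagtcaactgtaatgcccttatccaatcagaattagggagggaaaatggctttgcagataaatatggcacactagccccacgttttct
IRF1: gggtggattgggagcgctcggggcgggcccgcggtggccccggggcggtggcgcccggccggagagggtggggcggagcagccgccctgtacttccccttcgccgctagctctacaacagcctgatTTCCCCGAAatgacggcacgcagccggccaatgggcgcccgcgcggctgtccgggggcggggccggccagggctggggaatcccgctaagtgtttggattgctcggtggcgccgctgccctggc
GBP1: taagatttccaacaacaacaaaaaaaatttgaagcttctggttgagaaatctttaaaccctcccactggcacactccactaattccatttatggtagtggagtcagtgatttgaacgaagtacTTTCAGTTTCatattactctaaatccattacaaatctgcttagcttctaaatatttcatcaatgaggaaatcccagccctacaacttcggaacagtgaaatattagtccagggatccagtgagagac
TAP1: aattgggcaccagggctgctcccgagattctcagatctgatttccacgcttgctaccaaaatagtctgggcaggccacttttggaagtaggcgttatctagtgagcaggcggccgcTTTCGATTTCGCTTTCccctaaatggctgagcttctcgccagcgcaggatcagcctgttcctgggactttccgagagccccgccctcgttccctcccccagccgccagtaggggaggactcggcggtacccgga
IRF1 held 1 GAS match, CXCL10 and GBP1 1 ISRE match each, and TAP1 2. Among all 27305 promoters of this length, 6.78% held a GAS match and 3.07% an ISRE match. Of the 22 genes of 5 interferon lists (the CXCR3 ligands, GTPases, immunoproteasome, MHC class I and antiviral genes) that lay at least 2-fold below the range, 15 had a promoter here, and 8 of the 15 (53.3%) held either motif, as did 9.56% of all promoters and 8.11% of those of tested genes. The other 20 genes of these lists held either motif in 15 of 18 promoters (83.3%). A match describes the letters in this window only.

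Guanylate-binding proteins and MX proteins are GTPases that act against intracellular pathogens. GBP1 had 8 on the interferon-low array, against 325 on the untreated-labelled array, 368 on the second 6 h array, and 452 and 405 at 18 h. GBP2 had 15 on the interferon-low array and 168 to 322 on the others. MX1 and MX2 had 149 and 20 on the interferon-low array, and 669 to 873 and 125 to 199 on the others. All 4 tested members lay at least 2-fold below the range, where 5.29% of all tested genes did.

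Antigen presentation was low in part of its members only. TAP1, which carries peptides into the endoplasmic reticulum, had 61 on the interferon-low array, against 1772 on the untreated-labelled array, 1208 on the second 6 h array, and 1346 and 2038 at 18 h. The inducible proteasome subunits PSMB9 and PSMB8 had 156 and 165 on the interferon-low array, and 981 to 2443 and 711 to 1129 on the others. PSMB10, the remaining inducible subunit, had 376 on the interferon-low array and 543 to 1470 on the others, and the proteasome activator subunit PSME1 had 838 and 986 to 1471. The class I molecules themselves differed little. HLA-E had 253 on the interferon-low array and 271 to 515 on the others, HLA-F had 473 and lay within 465 to 1011, and the light chain B2M had 2911 and 1561 to 2851. B2M lay above the range by 1.02-fold only, and below it after quantile normalization. Of 7 tested class I genes, 2 lay below and 1 above the range, near the shares over all tested genes of 24.9% and 24.8%. All 4 of the immunoproteasome and its activator lay below it. In the class II pathway IFI30, a thiol reductase of antigen processing, had 116 on the interferon-low array and 549 to 1184 on the others. It was the only one of 15 tested genes there at least 2-fold below.

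Of 24 tested antiviral and small interferon-induced proteins, 18 lay below the range and 1 above, and 12 lay at least 2-fold below, with a median gap of -1.03 (log2). Over all tested genes the shares were 24.9%, 24.8% and 5.29%. TRIM22, a ubiquitin ligase that restricts viruses, had 26 on the interferon-low array, against 238 on the untreated-labelled array, 229 on the second 6 h array, and 498 and 475 at 18 h. IFIT3, which takes part in sensing foreign RNA, had 81 on the interferon-low array and 614 to 816 on the others. OAS2, which makes the oligoadenylates that activate RNase L, had 74 on the interferon-low array and 379 to 705 on the others. PML, the scaffold of nuclear bodies, had 64 on the interferon-low array and 295 to 426 on the others, and its other 2 probe sets also lay below the range. The second probe set of OAS2 lay below as well, at 127 against 199 to 336, whereas the second of SP110 lay within the range.

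Not every known target separated the array, and several were high at 18 h alone. The ubiquitin-like modifier ISG15 had 265 on the interferon-low array, against 176 on the untreated-labelled array, 315 on the second 6 h array, and 1025 and 1089 at 18 h. IDO1, which degrades tryptophan, had 88 on the interferon-low array, against 113 on the untreated-labelled array, 153 on the second 6 h array, and 903 and 906 at 18 h. CD74, the invariant chain of class II, had -23 on the interferon-low array, against -35 on the untreated-labelled array, -20 on the second 6 h array, and 116 and 81 at 18 h. For these genes the interferon-low array lay near the array labelled untreated and 6 h replicate 2. WARS1, the tryptophanyl-tRNA synthetase that interferon induces, was low on this array alone, with 405 on the interferon-low array and 1335 to 2621 on the others. IFI27 and IFITM1 had 1734 and 1344 on the interferon-low array, and 880 to 1725 and 812 to 1927 on the others.

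**Figure D1:**
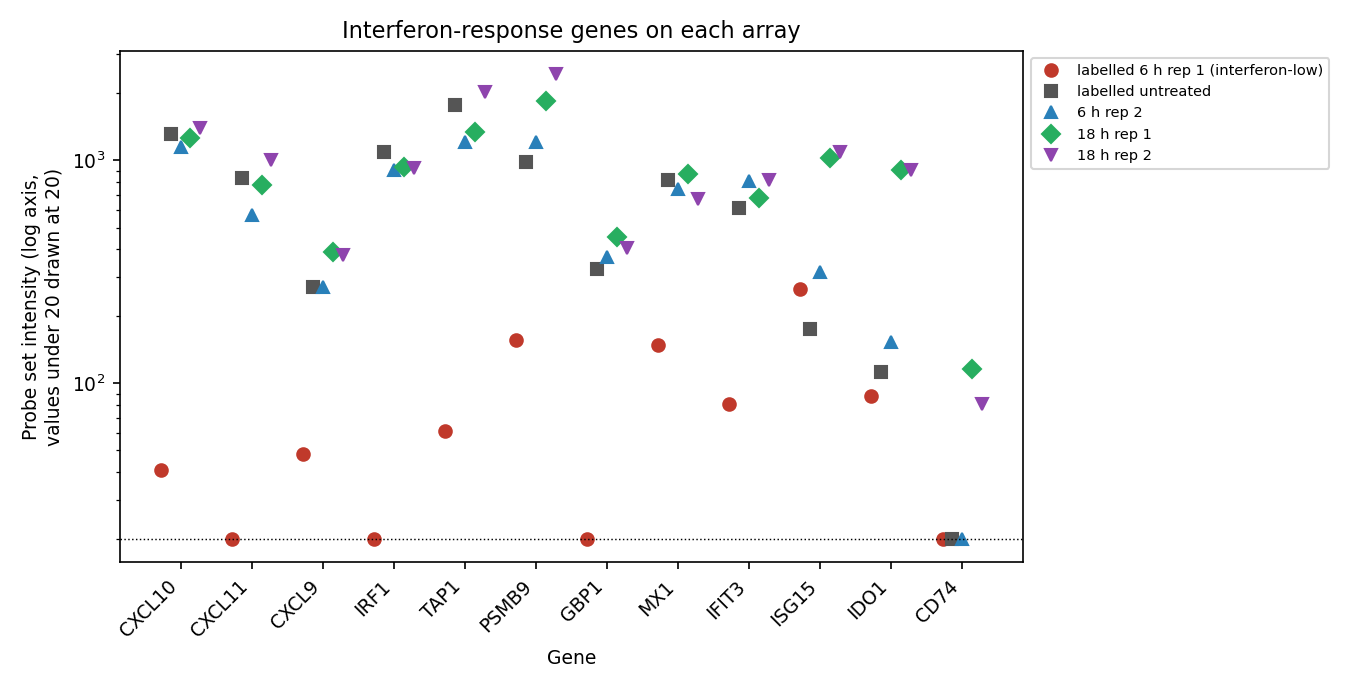
Intensity of 12 interferon-response genes (x axis) on each of the 5 arrays (log y axis, values under 20 drawn at the dotted floor). The red circles of the interferon-low array lie apart from the other 4 for CXCL10 (41) and IRF1 (14), but with the array labelled untreated and 6 h replicate 2 for ISG15 (265), IDO1 (88) and CD74 (-23).

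Some genes of inflammation and cell death outside these lists also lay low. The death ligand TNFSF10 (TRAIL) had 23 on the interferon-low array, against 420 on the untreated-labelled array, 481 on the second 6 h array, and 994 and 956 at 18 h. The receptor TNFRSF1A, which binds tumour necrosis factor, had 67 on the interferon-low array and 459 to 535 on the others. The initiator caspase CASP10 had 14 on the interferon-low array and 111 to 147 on the others. Of the 16 tested death genes, 9 lay below the range and 2 above, where 24.9% and 24.8% of all tested genes did. CASP8 was uneven, with 1 probe set 2.59-fold below, another above and the last within the range.

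The adhesion molecule ICAM1, which leukocytes bind, had -38 on the interferon-low array and 197 to 359 on the others. PLA2G2A, an antibacterial phospholipase, had 23 on the interferon-low array, against 487 on the untreated-labelled array, 525 on the second 6 h array, and 843 and 865 at 18 h. NOS2, the inducible nitric oxide synthase, had -22 on the interferon-low array and 320 to 526 on the others. These 3 genes thus lay at or near the floor on this array and well above it on all others. Related genes were mixed. Of 8 tested nitric oxide and oxidant genes, 3 lay below the range and 4 above, and of 11 secreted antimicrobial proteins 3 and 3. Of 13 tested NF-kB genes, 5 lay below and 1 above. Over all tested genes the shares were 24.9% below and 24.8% above. The second probe set of NOS2 had 139 and lay within 118 to 239. IL15RA, a receptor chain that presents the cytokine IL-15, had -55 on the interferon-low array and 151 to 208 on the others. SECTM1, a secreted and transmembrane protein, had 174 on the interferon-low array and 1163 to 2053 on the others.

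The authors' deposited list of induced genes holds a control column, which did not enter the choice of the array, although CXCL10 and IRF1 are on the list. That column is named as control, yet it equals the array labelled untreated in 3 of 97 probe sets. The list's 6 h replicate 1 column equals the interferon-low array in all 97, so the low values stand under that name in both files. The list was selected as induced by the authors on these samples, so its shares are no independent sign of induction. The 97 probe sets used here are fewer than the list's title states, and any others were not analysed here. Over all 97, with values floored at 20, the interferon-low array was under 2-fold above the control column in 77, the array labelled untreated in 61, 6 h replicate 2 in 50, and the 18 h arrays in 48 and 55. Many of the 97 are dim, and 22 had an 18 h mean of at least 100. Since that filter keeps probe sets high at 18 h, the counts among these 22 are not independent of it. Of these 22, the interferon-low array was within 2-fold of the control column in 13, at least 2-fold above in 6 and at least 2-fold below in 3, with a median ratio of 1.07. Without CXCL10 and IRF1, these counts were 13, 5 and 2 of 20. It was under 2-fold above in 16 of the 22. The array labelled untreated was under 2-fold above the control column in 2 (median ratio 6.92), and 6 h replicate 2 in 1 (median ratio 7.26).

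Among the probe sets within 2-fold, SECTM1 had 174 on the interferon-low array and 199 in the control column, PSMB9 had 156 and 176, and IFIT3 had 81 and 103. CXCL9 had 48 on the interferon-low array and 42 in the control column. For CXCL11 (-9 and 2) and GBP1 (8 and 7), both values lay under the floor, so their ratio of 1 comes from the floor. The 3 at least 2-fold below were TAP1, with 61 on the interferon-low array and 136 in the control column, IRF1, with 14 and 43, and GBP2, with 15 and 44. The 6 probe sets at least 2-fold above the control column were those of IDO1 (88 on the interferon-low array and 15 in the control column), MITF (70 and 9), PSG11 (69 and 21), PRKCSH (65 and 7), TRIM21 (57 and 10) and CXCL10 (41 and 17). All 6 were under 100 on the interferon-low array.

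**Figure D2:**
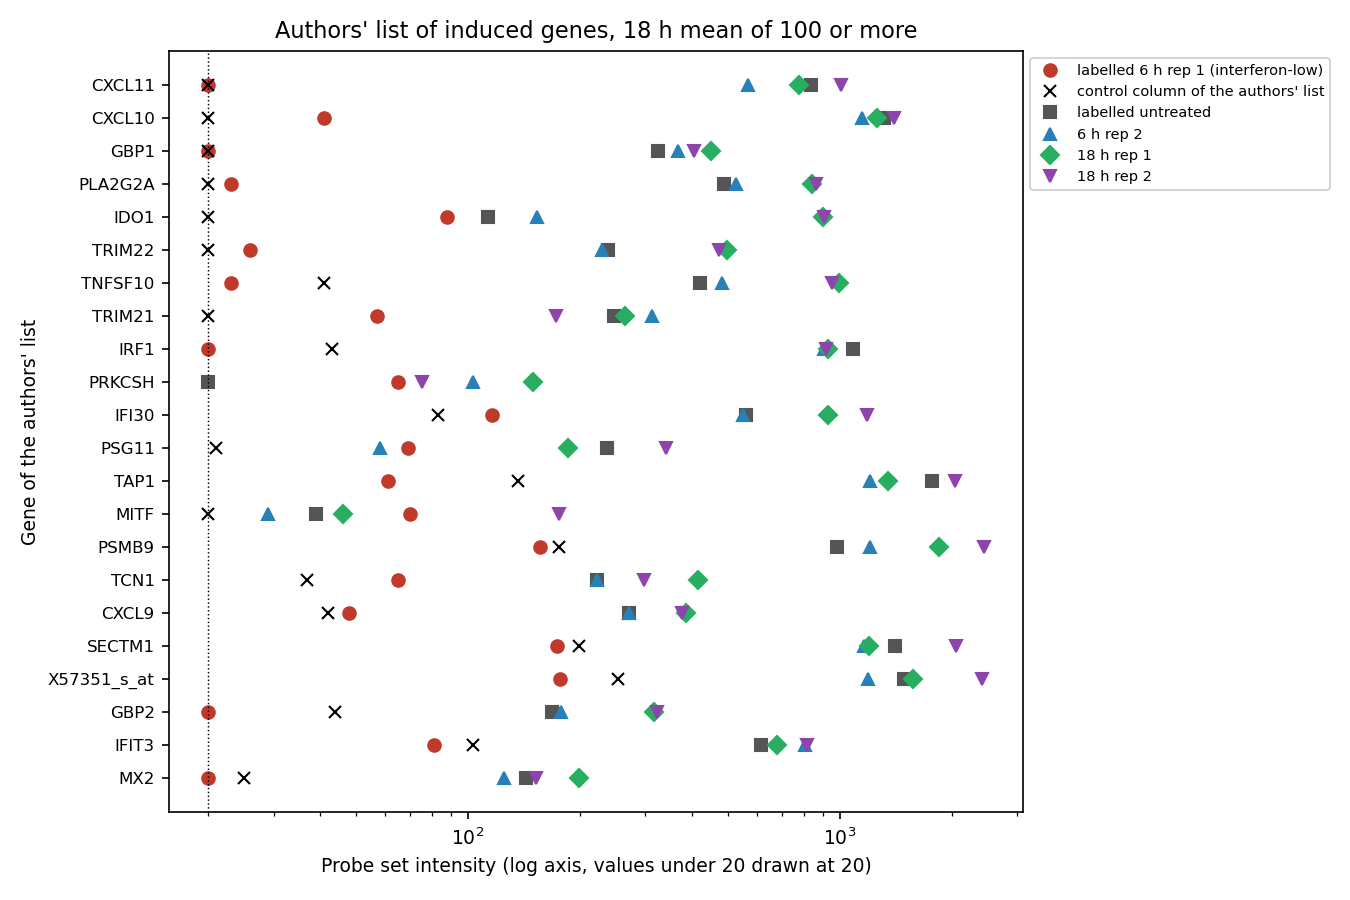
Intensity (log x axis, values under 20 drawn at the dotted floor) of the 22 probe sets of the authors' list with an 18 h mean of at least 100 (y axis). Red circles are the interferon-low array, crosses the list's control column and the other symbols the remaining arrays. Circles lie within 2-fold of the crosses in 13 of 22, above them by at least 2-fold in 6 and below in 3.

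Genes of growth were also among the largest gaps. MYC, the transcription factor of growth and a target of Wnt signalling in colon cells, had 20 on the interferon-low array, against 378 on the untreated-labelled array, 447 on the second 6 h array, and 367 and 332 at 18 h. Its second probe set had 22 on the interferon-low array and 138 to 388 on the others. The gaps were at least 16.6-fold and 6.27-fold, and both probe sets were apart from all other arrays. TCF7L2, the main DNA-binding partner of beta-catenin in colon, had -7 on the interferon-low array and 145 to 224 on the others. The cyclin CCND1 had 98 on the interferon-low array and 365 to 630 on the others, and SOX9, a factor of crypt base cells, had 48 and 131 to 192. Beta-catenin itself (CTNNB1) had 535 on the interferon-low array and 210 to 532 on the others. Of 21 tested MYC and Wnt genes, 10 lay below the range and 2 above, and 5 lay at least 2-fold below. The shares over all tested genes were 24.9%, 24.8% and 5.29%.

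Genes of DNA replication and mitosis lay below the range in 22 of 42 and above in 5 (24.9% and 24.8% of all tested genes), with a median gap of -0.07 (log2). These shares were not matched for intensity, and 29.8% to 37.2% of probe sets lay below in the 3 brightest of the 5 intensity groups. The phosphatase CDC25B, which activates cyclin-dependent kinases, had 208 on the interferon-low array and 748 to 898 on the others. PCNA, the sliding clamp of the replication fork, had 271 on the interferon-low array, against 869 on the untreated-labelled array, 898 on the second 6 h array, and 756 and 705 at 18 h. Its second probe set had 78 on the interferon-low array and 176 to 277 on the others. The helicase subunit MCM3 had 69 on the interferon-low array and 183 to 289 on the others, and the clamp loader RFC2 had 21 and 70 to 136. The second probe set of MCM3 had 87 on the interferon-low array and 124 to 171 on the others, a gap of 1.43-fold. The replication genes MCM2, MCM6 and MCM7 also lay below, by 1.57-fold, 1.46-fold and 1.69-fold, each under 2-fold. MCM5 had 276 on the interferon-low array and lay within 275 to 383. PLK1, a mitotic kinase, had 162 on the interferon-low array and 179 to 234 on the others. Of the 5 above the range, CKS2, a partner of cyclin-dependent kinases, was the 1 at least 2-fold above, with 268 on the interferon-low array and 42 to 133 on the others. E2F1 was uneven, and it was counted below by its brighter probe set, with 98 on the interferon-low array and 124 to 227 on the others. Another of its probe sets had 50 on the interferon-low array and -68 to 17 on the others, at least 2.5-fold above.

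Single enzymes and surface proteins also had large gaps. HK1, the hexokinase that opens glycolysis, had 21 on the interferon-low array, against 313 on the untreated-labelled array, 357 on the second 6 h array, and 286 and 310 at 18 h. Of the 26 tested genes of glycolysis and hypoxia, 7 lay below the range and 10 above (24.9% and 24.8% of all tested genes), and the other member at least 2-fold below was HK2. PGD, which makes NADPH in the pentose phosphate pathway, had 35 on the interferon-low array and 214 to 384 on the others. The transporter SLC7A5, which imports large neutral amino acids, had 25 on the interferon-low array and 83 to 372 on the others. The surface glycoprotein CEACAM1 had 107 on the interferon-low array and 809 to 956 on the others, while its relatives CEACAM5 and CEACAM6 had 2460 and 2577 on the interferon-low array, and 1271 to 2324 and 1202 to 2385 on the others. These gaps of 1.06-fold and 1.08-fold above were small, and CEACAM5 lay below the range after quantile normalization. The integrin chains ITGB4 and ITGA6, partners in hemidesmosomes, had 59 and 188 on the interferon-low array, and 238 to 430 and 416 to 463 on the others. LCN1, a lipocalin, had -159 on the interferon-low array and 180 to 374 on the others. Aminoacyl-tRNA synthetases lay below the range in 8 of 13 (24.9% of all tested genes), and WARS1 alone lay at least 2-fold below.

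**Figure D3:**
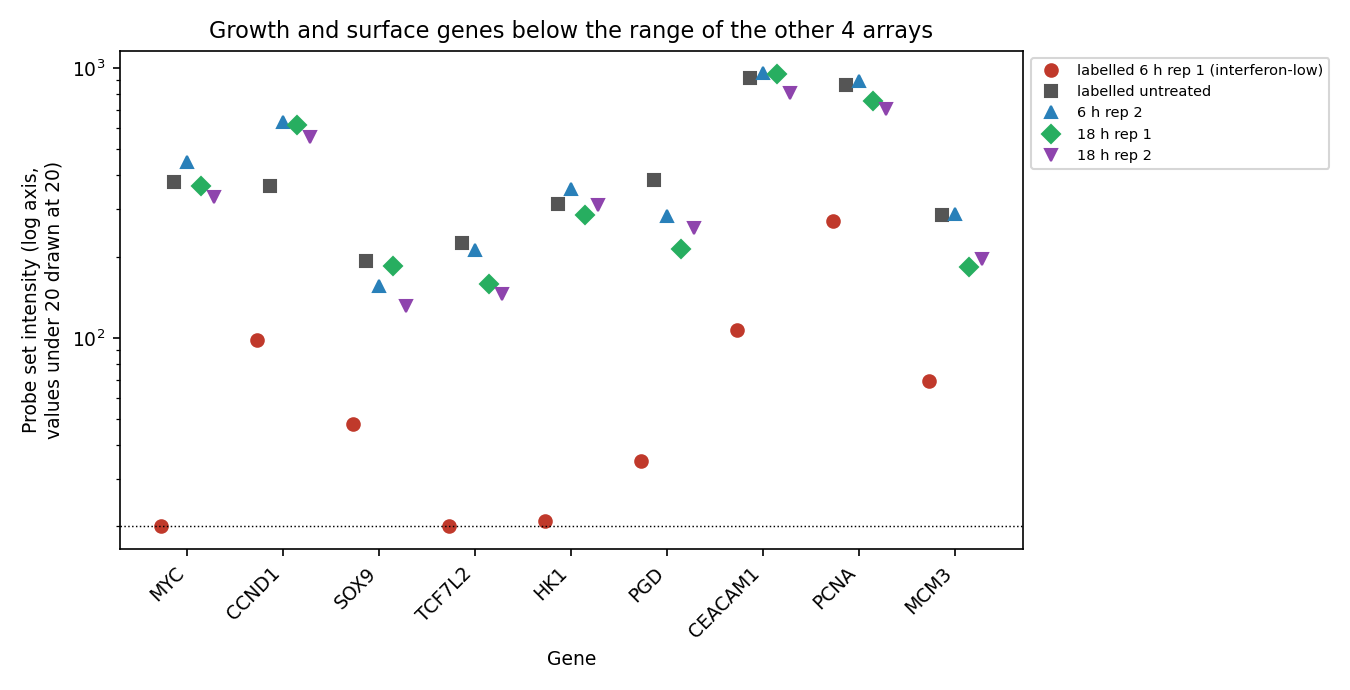
Intensity of 9 genes of growth, metabolism and the cell surface (x axis) on each array (log y axis, values under 20 drawn at the dotted floor). For each of the 9, the red circle of the interferon-low array lies below all other arrays, as for MYC (20) and HK1 (21).

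Most heat shock proteins lay above the range. Of 20 tested cytosolic and mitochondrial members, 13 lay above and 2 below, and 4 lay at least 2-fold above. Over all tested genes these shares were 24.8%, 24.9% and 2.7%. HSPA6, a strictly inducible member of the HSP70 family, had 404 on the interferon-low array, against 22 on the untreated-labelled array, 28 on the second 6 h array, and 40 and 41 at 18 h. HSP70 genes are alike in sequence, and what the probes of HSPA6 distinguish was not tested. DNAJB1, the HSP40 partner, had 1612 on the interferon-low array, against 583 on the untreated-labelled array, 566 on the second 6 h array, and 388 and 272 at 18 h. The small chaperones HSPB1 and CRYAB had 1773 and 246 on the interferon-low array, and 570 to 811 and 81 to 121 on the others. The chaperonin HSPD1 and its cofactor HSPE1 had 2154 and 1103 on the interferon-low array, and 1205 to 1814 and 406 to 563 on the others. In the endoplasmic reticulum, 4 of 16 tested chaperones and lectins lay above and 4 below, near the shares over all tested genes.

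The HSPA6 promoter is shown because this gene had the largest gap among the heat shock genes. Its 250 bases before the start lie at chr1:161524290-161524539 on the plus strand of GRCh38.p14 (RefSeq), and capitals mark a heat shock element match (GAA, 2 bases of any kind, TTC, 2 more, GAA, on either strand).
HSPA6: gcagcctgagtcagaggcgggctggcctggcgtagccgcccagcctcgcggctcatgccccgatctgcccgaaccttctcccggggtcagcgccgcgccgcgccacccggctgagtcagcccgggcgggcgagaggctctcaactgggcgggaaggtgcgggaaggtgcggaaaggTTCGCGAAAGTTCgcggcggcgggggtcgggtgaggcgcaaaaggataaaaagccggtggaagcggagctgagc
This motif was in 0.439% of all promoters of this length. It was in 1 of the 3 promoters found for the 4 heat shock genes at least 2-fold above the range, which is that of HSPA6.

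Some immediate early genes lay far above the range. FOS, a subunit of the AP-1 factor, had 604 on the interferon-low array, against 89 on the untreated-labelled array, 71 on the second 6 h array, and 116 and 117 at 18 h. EGR1, a zinc-finger factor induced by growth signals, had 369 on the interferon-low array and 38 to 120 on the others. The phosphatase DUSP2, which turns off MAP kinases, had 119 on the interferon-low array and lay under 0 on the other 4, from -186 to -114. DUSP2 passed the filter through the interferon-low array alone. The neutrophil chemokine CXCL8 had 275 on the interferon-low array and 38 to 68 on the others, and its second probe set had 73 and -1 to 37. FOS and CXCL8 thus exceeded the other 4 arrays while JUN had 63 and lay within 26 to 86. Of 17 tested members, 7 lay above the range and 3 below, where 24.8% and 24.9% of all tested genes did. The integrated stress factor ATF4 had 865 on the interferon-low array and 327 to 396 on the others.

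All 8 tested keratins lay above the range (6 of 8 after quantile normalization), and 1 of them by at least 2-fold. Of all tested genes, 24.8% lay above and 2.7% at least 2-fold above. Counting every probe set of these keratins, 8 of 9 lay above. KRT7, a keratin of simple epithelia, had 285 on the interferon-low array, against -28 on the untreated-labelled array, 22 on the second 6 h array, and 11 and -54 at 18 h. This gap of 12.95-fold was the largest above the range among all single-gene probe sets. KRT19 and KRT20 had 1293 and 361 on the interferon-low array, and 459 to 764 and 147 to 219 on the others. The main colon pair KRT8 and KRT18 had 2047 and 3271 on the interferon-low array, and 842 to 1849 and 1673 to 2838 on the others. For that pair 18 h replicate 2 came close, at 1849 and 2838.

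Ribosomal proteins and respiratory chain subunits, which are abundant transcripts, mostly lay above, the ribosomal proteins by small gaps. Of 42 tested cytosolic ribosomal proteins, 36 lay above the range and 0 below, with a median gap of 0.38 (log2), and 0 reached 2-fold. RPL34 had 3331 on the interferon-low array and 1378 to 1866 on the others. Of 36 tested respiratory subunits, 21 lay above and 5 below, and 5 lay at least 2-fold above. Over all tested genes these shares were 24.8%, 24.9% and 2.7%. UQCRB, of complex III, had 997 on the interferon-low array, against 308 on the untreated-labelled array, 303 on the second 6 h array, and 279 and 305 at 18 h, but its second probe set had 185 and 119 to 149. COX7B, of complex IV, had 1238 on the interferon-low array and 284 to 447 on the others. A shift of bright probe sets moved with these counts. Among the 204 probe sets with a geometric mean of at least 1000, 77.0% lay above the range and 8.33% below. Its part in the ribosomal, keratin and respiratory counts was not tested. With quantile normalization, which gives all arrays 1 distribution, 25 of 42 ribosomal proteins, 6 of 8 keratins and 18 of 36 respiratory subunits lay above, against 28.8% of all tested genes. With that scaling, 12 of 20 heat shock proteins lay above.

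**Figure D4:**
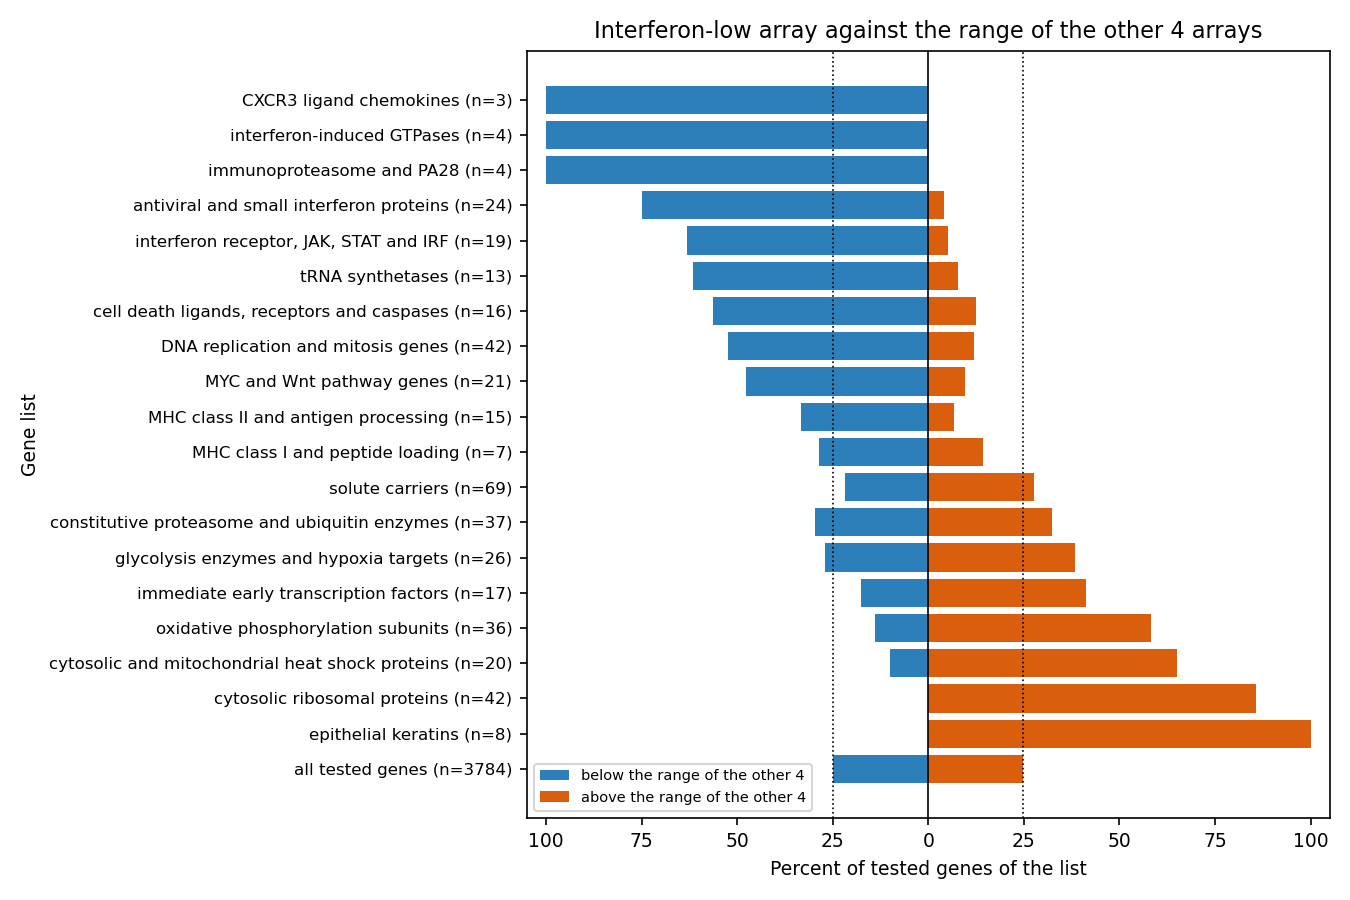
Percent of the tested genes of each list (y axis, number tested in brackets) that lay below (left bars) or above (right bars) the range of the other 4 arrays on the interferon-low array. Dotted lines mark all 3784 tested genes, 24.9% below and 24.8% above. All CXCR3 ligands and GTPases lay below, and all 8 keratins above, or 6 of 8 after quantile normalization.

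Among the other genes furthest above the range, most were dim. The linker histone H1-2 had 135 on the interferon-low array and lay under 0 on all others, from -59 to -13, a gap of at least 6.75-fold. The diamine oxidase AOC1 had 126 on the interferon-low array and -65 to 3 on the others, and the imprinted RNA H19 had 110 and 4 to 11. TFDP2, HNRNPA0, GGH, P3H4 and TNNT1 had 76 to 91 on the interferon-low array and at most 22 on any other. H1-2, AOC1, H19, TFDP2, HNRNPA0, GGH and P3H4 passed the filter through the interferon-low array alone. BRME1 and RAE1 had 143 and 159 on the interferon-low array, and -31 to 36 and -40 to 42 on the others. In 45 of the 135 probe sets at least 2-fold above, the other 4 arrays were all at or under the floor, so those gaps are lower bounds. In 84 of the 242 at least 2-fold below, the interferon-low array itself was.

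**Figure D5:**
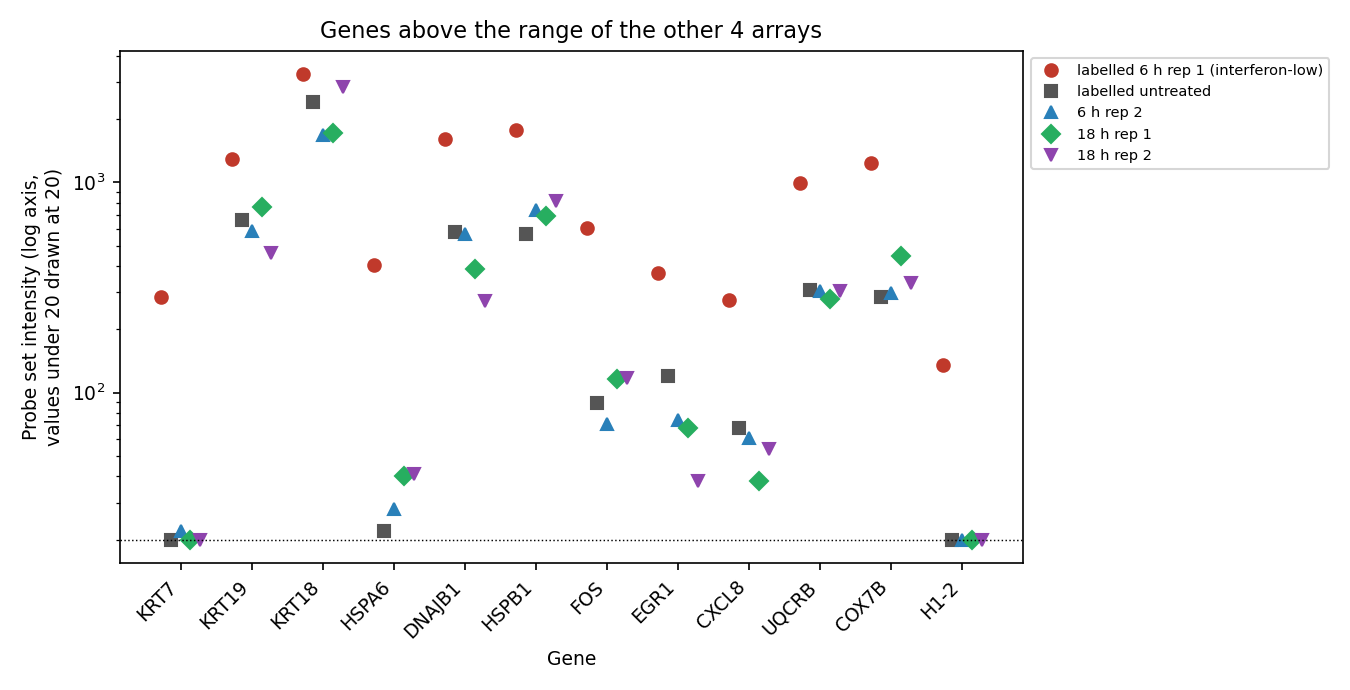
Intensity of 12 genes above the range of the other 4 arrays (x axis) on each array (log y axis, values under 20 drawn at the dotted floor). The red circles of the interferon-low array are highest for each gene, by 12.95-fold over the nearest array for KRT7 and by 1.15-fold for KRT18.

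Several other lists held few or balanced differences. Of 11 tested genes of chloride secretion, 10 lay within the range and 1 below. Over all 3784 tested genes, 1901 lay within the range, 24.9% below and 24.8% above. Complement genes lay below in 3 of 10 and above in 4, metallothioneins in 1 and 2 of 8, and cholesterol synthesis genes in 3 and 3 of 12. Solute carriers lay below in 15 of 69 and above in 19, near the share over all genes. In the constitutive proteasome, 11 of 37 lay below and 12 above.

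At the threshold itself, genes looked alike on both sides. BIN1 had 40 on the interferon-low array and 79 to 163 on the others, a gap of 1.98-fold below, and BCL9 had 32 and 64 to 91, a gap of 2-fold. Above the range, ICAM2 had 119 on the interferon-low array and 46 to 60 on the others, a gap of 1.98-fold, and NDUFB7 had 86 and -44 to 43, a gap of 2-fold. Of the 39 genes with several probe sets and 1 at least 2-fold apart, all probe sets lay on the same side in 21, on opposite sides in 4, and in 14 another lay within the range.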

How the data were processed

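Gene expression was measured on 5 arrays (1 labelled untreated, 2 at 6 h, 2 at 18 h), grouped by their titles. The authors deposited intensities as whole numbers, and 25.3% to 29.5% of an array's values were negative, so some quantity had been subtracted. The sources used here do not give how it was computed or scaled. The labels name a kit for whole-transcript labelling and no summary method. The number of arrays limits the precision.

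Gene symbols came from the platform annotation: 5649 had 1 gene symbol, 321 several and 1048 none. The 1989 that never exceeded 20 were left out. A gene with several probe sets was counted by the one with the highest mean. No mean over the other 4 arrays was taken. The calculation used pandas 2.3.3 and numpy 2.4.6 in Python 3.11.15 and was tested on simulated data. The simulated probe sets lay well above the floor and varied little between arrays, so dim or variable ones were not covered. The array, the lists and the rules were chosen with earlier results of these data known. Named genes are the 15 furthest on each side, CXCL10, IRF1, TAP1, GBP1 and MYC, and up to 4 members of each list at least 2-fold outside the range. Other list members were named after their values were seen. Alternatives changed the floor, filter, scaling, fold and arrays.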

Additional observations from a re-analysis of the deposited data

How the results depend on the processing

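Other choices moved the counts more than the sides. Of the probe sets named by rule (the furthest genes, the markers and list members at least 2-fold outside the range), 0 reversed and 27 came within the range under floors of 50 or 100. Of all 483 list genes outside the range, quantile normalization turned 7 from above to below (B2M, CEACAM5, ATP5F1B, COX7A2, EEF1A1, LGALS3 and PRDX1) and put 72 within it, a check added after seeing the data. The 75th percentile turned 0 and put 37 within. At least 2-fold below and above, the counts of 242 and 135 became 132 and 76 with a floor of 50, 75 and 48 with a floor of 100, and 439 and 185 with a floor of 5. With a floor of 100, 605 probe sets lay below the range and 774 above. Probe sets above 100 on at least 1 array gave 75 at least 2-fold above, and 774 above the range. At least 3-fold, 93 lay below and 37 above. Against 6 h replicate 2 alone, which has the same label, 826 and 617 lay at least 2-fold below and above, and 2583 and 2024 below and above at all, because 1 array has no range. Leaving out 1 of the other 4 arrays at a time gave 264 to 329 below and 156 to 217 above by at least 2-fold, the 217 without 18 h replicate 2, and 1315 to 1535 below and 1368 to 1467 above the range. Quantile normalization gave 191 below and 162 above, and scaling to a common 75th percentile 195 and 183. These moved the share of calls that lay above by over 10 percentage points. Alternatives chosen after seeing the data gave 220 and 119 where the gap exceeded the range of the other 4, and 90 above without probe sets at the floor on all 4. No paired analysis was possible because the interferon-low array is 1 array and the result comes from no test.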
